A study of Arabidopsis thaliana with 7 samples.

Results

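CCA1, a MYB-related transcription factor of the Arabidopsis thaliana clock, was located by chromatin immunoprecipitation and sequencing (ChIP-seq) at 9 genes for light-harvesting chlorophyll a/b-binding proteins, namely LHCB1.1 to LHCB1.5, LHCB2.1 to LHCB2.3 and LHCA4. Peaks were taken when the authors' nearest promoter, or the gene in their annotation column, was 1 of these genes. This gave 4 of the 1433 peaks in continuous light (LL) and 5 of the 1607 peaks in the light-dark cycle (LD). Both regimes used 14-day-old whole seedlings of the WS-2 ecotype that carried CCA1 fused to green fluorescent protein under the CCA1 promoter, grown in 12 h of light and 12 h of dark and harvested 2 h after dawn or subjective dawn (ZT2). Before that harvest LL plants were held in continuous light (3 libraries), while LD plants stayed in the cycle (2 libraries). No peak list of the ZT14 library or the input library was analysed, and whether either served as the control behind the control tags and folds is not stated. Each regime has a single peak list over its pooled libraries, so no value has a spread between replicates and no test over samples was possible. The labels do not say how many transgenic lines were used.

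Light-harvesting proteins bind chlorophyll and pass absorbed light energy to the photosystems. LHCB1 and LHCB2 form, with LHCB3, the trimers of the major antenna of photosystem II, and LHCA4 belongs to the antenna of photosystem I. Their genes, long known as CAB genes, are expressed rhythmically with a maximum in the day, and CCA1 was originally described as a protein that binds an LHCB1 promoter. The clock gene TOC1 takes its name from the timing of CAB expression.

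The gene columns named 5 of the 9 genes in each regime, but not the same 5, from 4 peaks in LL and 5 in LD. LHCB1.3 (AT1G29930), LHCB1.4 (AT2G34430), LHCB2.1 (AT2G05100) and LHCB2.3 (AT3G27690) were the nearest genes of a peak in both lists. LHCB1.5 (AT2G34420) was named in LL by the annotation column alone, for the peak whose nearest gene was LHCB1.4. LHCA4 (AT3G47470) had a peak in LD alone. LHCB1.1 (AT1G29920), LHCB1.2 (AT1G29910) and LHCB2.2 (AT2G05070) had no peak in either list by either column. Over all nuclear genes of the reference annotation, either column named 3.82% in LL and 4.24% in LD (3.38% and 3.77% as nearest gene alone), and 4.96% and 5.52% of the protein-coding ones. The members were chosen with peaks at some of them already known, so their share is not set against these values by a test.

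**Figure D1:**
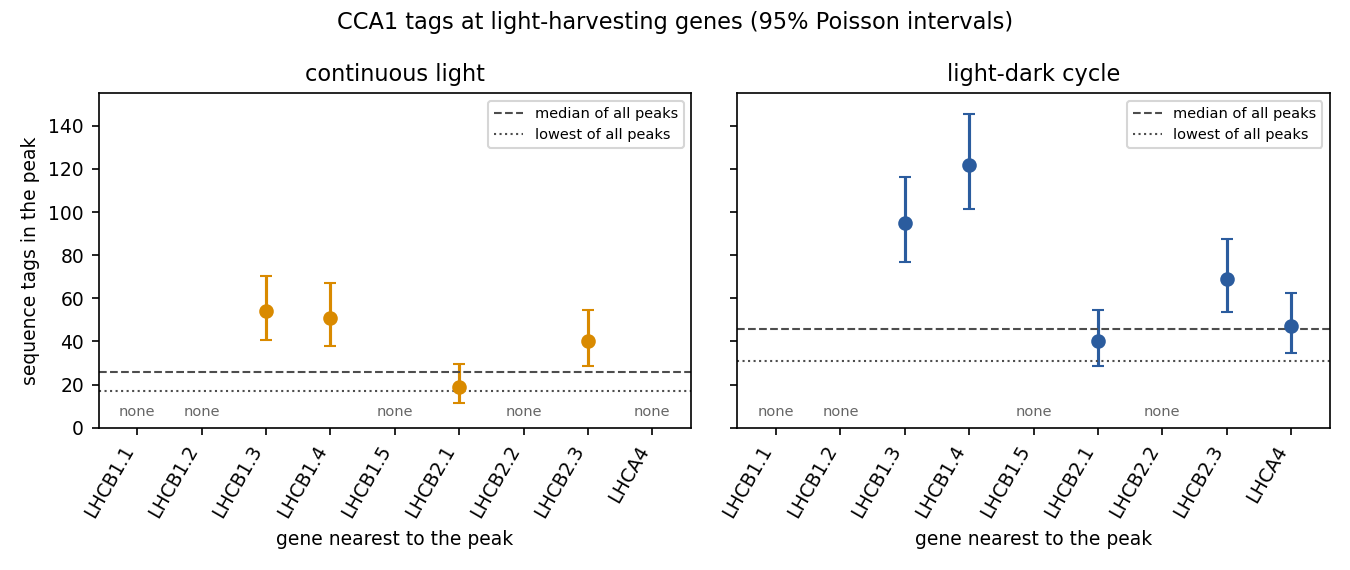
Sequence tags in the peak (vertical axis) for each gene as nearest gene of the peak, in continuous light (left) and in the light-dark cycle (right), with exact 95% Poisson intervals. Dashed and dotted lines mark the median and the lowest tag number over all peaks of the list; LHCB1.3 and LHCB1.4 hold the most tags in both panels, and LHCB2.1 lies below the median in both.

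The highest tag numbers of the family were at LHCB1, which encodes the most abundant antenna protein of photosystem II. The LHCB1.3 peak lay on chromosome 1 from 10477724 to 10477882 in LL and from 10477740 to 10477864 in LD (TAIR10). It held 54 tags in LL (95% Poisson interval 40.6 to 70.5) and 95 tags in LD (76.9 to 116). Its signal was 32.5-fold over control in LL and 44.7-fold in LD, by the authors' values. The peak centre preceded the transcription start site (TSS) by 202 bp in LL and 203 bp in LD, both in the promoter-TSS category. The position was nearly the same in both regimes.

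The LHCB1.4 peak was the highest of the family in LD. It lay on chromosome 2 from 14524514 to 14524638 and held 122 tags (101 to 146), which were 47.8-fold over control. In LL the peak ran from 14524465 to 14524623 and held 51 tags (38.0 to 67.1), 30.7-fold over control. The centre was 180 bp upstream of the LHCB1.4 TSS in LD and 212 bp upstream in LL. The gene ranked 50 by score in LD and 183 in LL, where ranks run over all peaks of the list.

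This site sits between neighbouring copies. LHCB1.5 and LHCB1.4 are adjacent in the gene order of chromosome 2, LHCB1.5 on the side of lower coordinates. Both lists placed the LHCB1.4 TSS at 14524756 on the plus strand, so its upstream peak lies on the side of LHCB1.5. The annotation column put the LL peak in the promoter of LHCB1.5 and the LD peak in that of LHCB1.4, although the centres were 32 bp apart and the peaks overlapped by 110 bp. The columns named different genes for 17.0% of the LL peaks and 16.2% of the LD peaks that had a gene in both. The gene name thus changed between the lists while the peaks overlapped. The distance of the peak to the LHCB1.5 TSS is not given in the files. In LL, peaks of the promoter-TSS category whose columns named the same gene had distances from -993 to 99 bp, where negative is upstream of its TSS.

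On chromosome 1, LHCB1.2, LHCB1.1 and LHCB1.3 follow each other in order of rising coordinates. The LHCB1.3 TSS was at 10478005 on the plus strand by both lists, so the peak lay between LHCB1.1 and LHCB1.3. It was the single peak assigned to this cluster in each list, and both gene columns gave LHCB1.3. LHCB1.1, known as CAB2 and used as a reporter of clock output, was named for no peak by either column. The TSS of LHCB1.1 is not given, so the distance of this peak to it is not known. The site may thus not belong to LHCB1.3 alone. The next peak lay 84542 bp away in LL, beside AT1G30090, and 188046 bp away in LD, beside COR413IM1. The authors' annotation puts LHCB1.3 and LHCB1.4 in the same UniGene cluster of transcripts. The sources used here do not say how reads that match several copies were placed. Whether this bears on which copies carry a peak was not tested, so the copy named for a peak is uncertain. The lack of a peak at LHCB1.1, LHCB1.2 and LHCB2.2, and of one nearest to LHCB1.5, is uncertain too.

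At LHCB2, which encodes the antenna protein best known for its phosphorylation in state transitions, LHCB2.3 had the higher signal. Its peak held 40 tags in LL (28.6 to 54.5) and 69 in LD (53.7 to 87.3), on chromosome 3 from 10255753 to 10255911 and from 10255741 to 10255865. The centre lay 115 bp before the TSS in LL and 144 bp before it in LD. The signal was 20.4-fold over control in LL and 32.4-fold in LD. No other gene of the family neighbours LHCB2.3.

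LHCB2.1 had the fewest tags of the family in both lists. It held 19 tags in LL (11.4 to 29.7), 2 above the fewest of any LL peak, and 40 in LD (28.6 to 54.5), 9 above the fewest of any LD peak. The peak ran on chromosome 2 from 1824476 to 1824634 in LL and from 1824517 to 1824641 in LD, 130 bp and 154 bp upstream. Both lists place the TSS at 1824425 on the minus strand, so the peak lies on the side of higher coordinates. LHCB2.2, separated from LHCB2.1 by 5 annotated genes, lies on the other side. The nearest other peak was 202813 bp away in LL and 202829 bp away in LD, beside GRP-3, so nothing in either list was called near LHCB2.2.

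LHCA4, the photosystem I member, carried a peak in LD on chromosome 3 from 17495000 to 17495124. It held 47 tags (34.5 to 62.5) and was 20.1-fold over control. Its centre was 29 bp upstream of the TSS, closer than any other peak of the family, and the peak spanned the TSS. The nearest LL peak was 63701 bp away, beside TCP14. Of 306 other LD peaks with 43 to 51 tags, 204 (66.7%, 95% Wilson interval 61.2 to 71.7) overlapped an LL peak. Over all LD peaks this share was 66.5%. The fewest tags of an LL peak were 17, and tags below the calling threshold are not listed, so an absence of CCA1 from LHCA4 in LL cannot be read from the list.

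**Figure D2:**
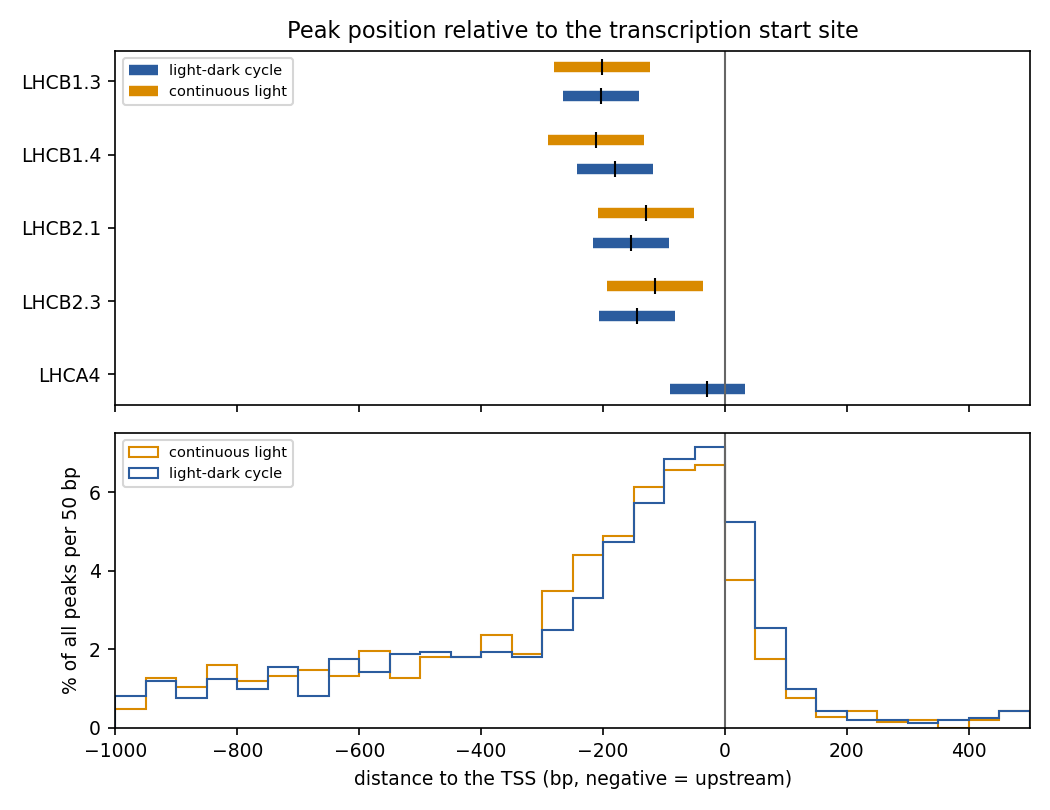
Upper panel, span of each peak (bar) and its centre (tick) relative to the TSS of the nearest gene, in bp, for continuous light and the light-dark cycle; lower panel, share of all peaks of each list per 50 bp. The LHCB1 centres lie 180 to 212 bp upstream, the LHCB2 centres 115 to 154 bp upstream and the LHCA4 centre 29 bp upstream.

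All 9 peaks of the family were in the promoter-TSS category, which held 59.4% of all LL peaks and 59.0% of all LD peaks. Every centre also lay within 250 bp upstream of the TSS, as did 29.0% and 27.9% of all peaks. This window was chosen after the positions were seen, so the contrast adds nothing to the distances themselves. Within the family the LHCB1 centres (180 to 212 bp) lay farther upstream than the LHCB2 centres (115 to 154 bp) in both regimes. With a pair of genes on each side, this order is a description.

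The order of tags within each list was compared with exact 95% intervals of the ratio, which cover counting error only. In LL, LHCB1.3 and LHCB1.4 did not differ beyond counting error (ratio 1.06, interval 0.709 to 1.58), nor did LHCB1.4 and LHCB2.3 (1.28, 0.826 to 1.98). LHCB2.3 exceeded LHCB2.1 by a ratio of 2.11 (1.19 to 3.85). In LD the order was LHCB1.4, LHCB1.3, LHCB2.3, LHCA4 and LHCB2.1, and the interval for each neighbouring pair included 1. The ratio of LHCB1.3 to LHCB2.3 was 1.38 (0.999 to 1.91), and that of LHCB2.3 to LHCA4 was 1.47 (0.999 to 2.17). Between the ends of the order LHCB1.4 had 3.05 times the tags of LHCB2.1 (2.12 to 4.48).

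**Figure D3:**
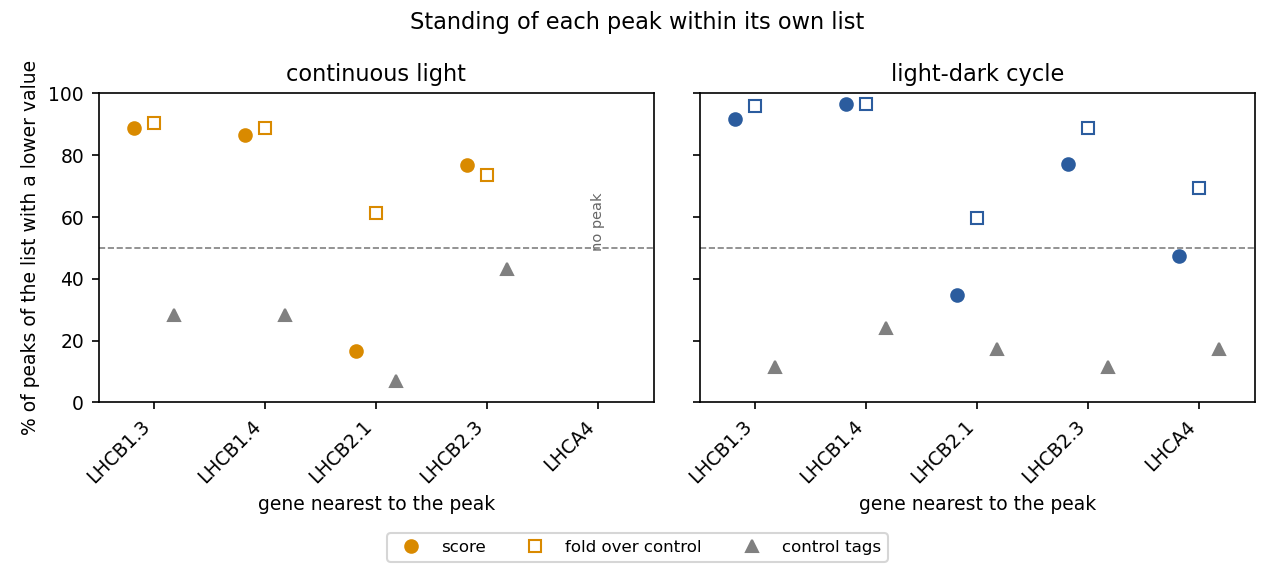
Share of all peaks of the same list with a lower score (circles), fold over control (squares) or number of control tags (triangles) than each peak of the family, in percent; the dashed line marks 50%. LHCB2.1 stands at 16.7% by score and 61.4% by fold in continuous light, and all control tags stand below the line.

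Within their lists the peaks ran from strong to weak, with 3 of 4 in the upper 50% by score in LL and 3 of 5 in LD, which held 48.3% and 48.2% of all peaks. By score, LHCB1.3 stood above 89.0% of LL peaks and 91.7% of LD peaks, and LHCB1.4 above 86.6% and 96.7%. LHCB2.3 stood above 76.8% and 77.2%. LHCA4 stood above 47.2% of LD peaks, near the middle of the list. LHCB2.1 stood above 16.7% and 34.8%. The scores were 52, 49, 38 and 20 in LL for LHCB1.3, LHCB1.4, LHCB2.3 and LHCB2.1, and 99, 126, 69 and 42 in LD, with 47 for LHCA4.

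Control tags at the peaks of the family were below the list medians, at LHCB2.3 in LL only slightly. Scaled control tags were 1.7 at LHCB1.3 and at LHCB1.4, 2.0 at LHCB2.3 and 1.2 at LHCB2.1 in LL, where the median over all peaks was 2.1. In LD they were 2.1 to 2.6 at the 5 peaks against a median of 3.2. All 9 peaks thus had fewer control tags than the median peak of their list. Over all peaks, 48.0% in LL and 45.1% in LD had fewer. The 4 LL peaks overlap LD peaks at the same genes, so the 9 peaks are not independent sites. Fold over control was above the list median at all 4 LL peaks and all 5 LD peaks, as at 49.7% and 49.9% of all peaks. It ran from 16.2 to 32.5 against 13.6 in LL and from 17.1 to 47.8 against 14.8 in LD. Fold over the local surroundings was above the median too, at 15.0 to 25.8 against 12.9 and at 14.1 to 21.9 against 11.4. By fold over control, LHCB2.1 stood above 61.4% of LL peaks and 59.7% of LD peaks, and LHCA4 above 69.4% of LD peaks. Fold divides by control tags, so these measures are not independent of each other.

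Base composition did not set the peaks apart in 1 direction. The 500 bp windows around them held 31.9% to 38.3% G and C in LL and 31.5% to 37.3% in LD, with list medians of 32.7% and 33.3%. Of the 4 LL windows 3 were above the median, and of the 5 LD windows 3 were. LHCB2.3 had the highest GC share in LL (38.3%) and LHCB1.4 in LD (37.3%).

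All 4 LL peaks of the family shared 1 bp or more with an LD peak, against 74.6% of all LL peaks. Of the 5 LD peaks 4 did, against 66.5% of all LD peaks. Their centres differed by 1 bp at LHCB1.3, 24 bp at LHCB2.1, 29 bp at LHCB2.3 and 32 bp at LHCB1.4. Over all 1069 shared peaks the median difference was 15 bp, and 75% differed by 30 bp or less. The LHCB1.3, LHCB2.1 and LHCB2.3 centres were within that distance and the LHCB1.4 centre was just beyond it.

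**Figure D4:**
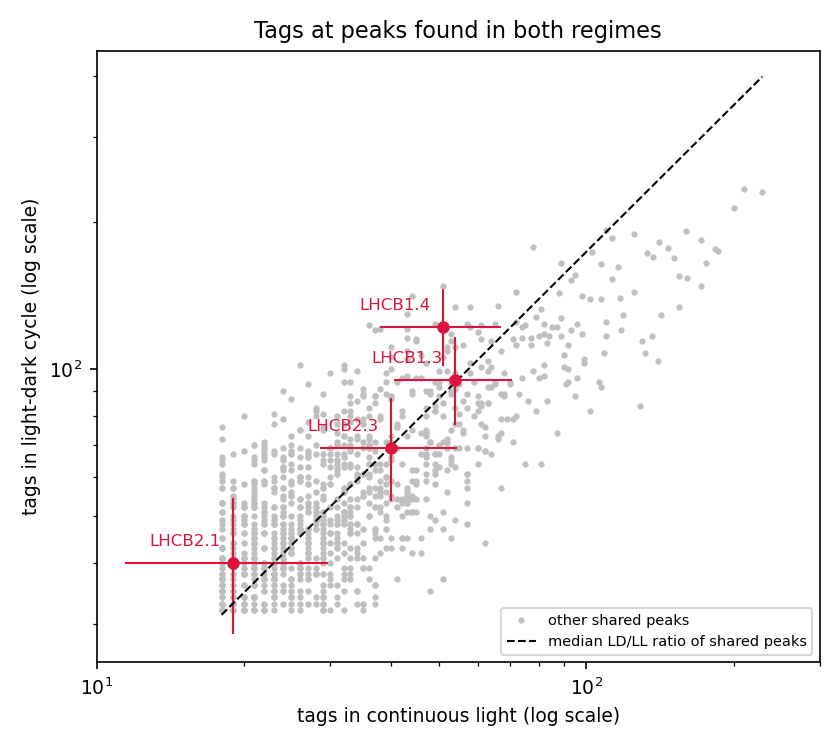
Tags in continuous light (horizontal, log scale) and in the light-dark cycle (vertical, log scale) at the 1069 peaks found in both lists; the family is labelled, with 95% Poisson intervals, and the dashed line marks the median ratio of 1.74. LHCB1.3 and LHCB2.3 lie close to the line, and LHCB1.4 lies above it.

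The lists differ in depth, so tags were set against those of other shared peaks. The ratio of LD to LL tags had a median of 1.74 over all shared peaks and a range of 1.4 to 2.15 for the middle of the distribution (25% to 75%). It was 1.76 at LHCB1.3 (interval 1.25 to 2.50), 1.73 at LHCB2.3 (1.15 to 2.61), 2.11 at LHCB2.1 (1.19 to 3.85) and 2.39 at LHCB1.4 (1.71 to 3.39). Each interval included the median over all shared peaks. Each also included 2.17, the ratio (LL over LD) of the constants by which the authors scaled the tags. Their scaled signal at LHCB1.4 was 381.7 in LL and 420.1 in LD. It was 404.2 and 327.1 at LHCB1.3, 299.4 and 237.6 at LHCB2.3, and 142.2 and 137.7 at LHCB2.1. The ratio of LD to LL tags falls as LL tags rise. After the values were seen, peaks with LL tags within 10% of each gene's were therefore also taken. The median there was 1.48 over 95 peaks for LHCB1.4, whose ratio was higher than in 96.8% of them and whose interval lay above that median. It was 1.46 over 83 peaks for LHCB1.3, 1.55 over 132 peaks for LHCB2.3 and 2.11 over 145 peaks for LHCB2.1. Those genes were higher than 71.1%, 60.6% and 46.9% of the peaks, and their intervals included the median. Without replicate lists a difference in binding between the regimes at LHCB1.4 cannot be told apart from variation between libraries.

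A few other genes of the light reactions carried peaks. LHCA1, LHCA2, LHCA3, LHCA5, LHCA6, LHCB3, LHCB4.1 to LHCB4.3, LHCB5, LHCB6 and LHCB7 were without a peak in both lists (0 of 12, 95% Wilson interval 0 to 24.2%). This interval includes the 4.96% (LL) and 5.52% (LD) of all protein-coding genes, so 0 of 12 does not set these genes apart from other genes. Of 12 photosystem I subunit genes, PSAD2 and PSAE1, which encode stromal subunits, had a peak in both regimes (16.7%, 4.7 to 44.8). This interval also includes the 4.96% and 5.52% of all protein-coding genes. PSAD2 held 20 tags in LL and 52 in LD, and PSAE1 held 19 and 32. Both genes in LL, and PSAE1 in LD, were thus near the fewest tags of any peak. Of 10 photosystem II genes, PSBX had a peak of 21 tags in LL alone. The fewest tags of a peak were 17 in LL and 31 in LD, and 74.6% of all LL peaks overlapped an LD peak. An absence of CCA1 from PSBX in LD thus cannot be read from the list. The 4 RBCS genes, for the small subunit of Rubisco, had no peak. Their interval of 0 to 49.0% likewise includes the 4.96% and 5.52% of all protein-coding genes.

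Chlorophyll synthesis genes were bound in both regimes, at 3 of 14 members (21.4%, 7.57 to 47.6). PORB, which encodes a light-dependent protochlorophyllide oxidoreductase, held more tags than any of the light-harvesting genes. It had 116 in LL (95.9 to 139) and 162 in LD (138 to 189). The LD interval overlapped that of LHCB1.4, which does not decide whether they differ beyond counting error. No interval of their ratio was computed. The PORB peaks were 79.0-fold and 58.6-fold over control, at 70 bp and 32 bp upstream. HEMA1, for the glutamyl-tRNA reductase that starts the pathway, held 49 tags in LL and 84 in LD and was thus near LHCB1.3 and LHCB1.4 in LL. CRD1, for a subunit of the cyclase, held 24 and 46. ELIP1, a stress-induced relative of the light-harvesting proteins, held 24 and 39 tags farther upstream (602 bp and 590 bp). TAP38, the phosphatase that acts on the light-harvesting proteins in state transitions, held 22 and 46 tags just downstream of its TSS (17 bp and 40 bp). ELIP1 and TAP38 were 2 of 5 genes on their list. Over all 57 genes of these lists, 8 had an LL peak (14.0%, 7.29 to 25.3) and 7 an LD peak (12.3%, 6.08 to 23.2), against 4.96% and 5.52% of all protein-coding nuclear genes. The lower end of the LD interval is close to the share of all protein-coding genes, and the lists were chosen with results known, so no more is read from these counts.

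Among 997 other genes that were nearest to a peak in both lists, those whose pair of score percentiles was closest to LHCB1.3 were EPR1 (AT1G18330), RLT2 (AT5G44180) and HMGB3 (AT1G20696). EPR1 scored 53 in LL and 100 in LD, RLT2 51 and 101, and HMGB3 51 and 97. They differed from LHCB1.3 by 0.611, 1.05 and 1.13 percentage points over the pair of lists, a likeness in rank only.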

How the data were processed

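TAIR10, HOMER 4.7, Bowtie2 2.2.1, Trimmomatic 0.33 and CASAVA 1.8 are the build and tools named per the submitters' processing notes, without their roles. Each list holds, per the file headers, HOMER peaks kept by an irreproducible discovery rate filter over a regime's combined libraries. The control library, the handling of duplicate or multiply matching reads and the library totals are not stated. Per the file headers, the authors deposited per peak a tag count, a tag signal scaled by 1 constant per list, a scaled control signal, a score, a focus fraction, fold ratios over control and over the surroundings, and p-values. LL peaks were 158 bp wide with 17 to 229 tags (median 26), and LD peaks 124 bp wide with 31 to 234 tags (median 46). The authors' annotation with HOMER's annotatePeaks.pl gave the nearest TSS and, per the file headers, a GC fraction over 500 bp.

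Computed here (Python 3.11.15, pandas 2.3.3, scipy 1.17.1) were overlaps of at least 1 bp, ranks within a list, exact Poisson and Wilson intervals at 95%, exact conditional intervals of tag ratios, and the TSS implied by both lists. Overlaps and intervals were checked on simulated data. Intervals cover counting error only, since amplified tags are not independent molecules. Gene order and names came from a RefSeq table of TAIR10.1, whose coordinates were not used; all 9 members and all 57 genes of 6 other lists matched it. The members and lists were chosen with earlier results of these data known. Named were the members, list genes with a peak, other genes given for a member's peak, and the 3 genes most alike in score percentile to LHCB1.3; neighbouring peaks' genes and genes without a peak were named for context. The 250 bp window and the comparison at like tags were chosen after the values were seen.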

Additional observations from a re-analysis of the deposited data

How the results depend on the processing

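Alternatives were the nearest promoter or the annotation gene alone, the upper 50% of each list by score, an overlap of 50% of both peaks, centres within 500 bp, peaks from 1000 bp upstream to 500 bp downstream for the other lists, ranks by total tags or by fold over control, and lists without organelle peaks. Of 20 recomputed counts, 18 stayed within 1.5 times the value reported. The exceptions were the LD peaks and the LD genes of the family, which both fell from 5 to 3 among the upper 50%, where LHCA4 and LHCB2.1 were left out by construction. LL genes of the family numbered 4 in place of 5 with the nearest promoter alone, with the annotation gene alone and among the upper 50%. Ranks by total tags were counted as moving 2 of 9 standings, and ranks by fold over control 7 of 9. These counts do not follow the Poisson intervals of the tags. A shift at LHCB1.4 in LL from 86.6% by score to 88.8% by fold was counted as moved. The largest shift was at LHCB2.1 in LL, from 16.7% by score to 61.4% by fold and 9.35% by tags. Leaving out organelle peaks moved none of the 9. No paired analysis was possible because each regime has a single list over pooled libraries, and for the same reason no replicate could be left out. The planned search for binding motifs in promoters and the comparison of protein sequences were not run. Depth limits LHCB2.1 in LL, whose 19 tags lie 2 above the fewest of any LL peak.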
